A study of Mus musculus with 2 samples.

Results

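The 43 cell cycle genes described here were taken by symbol from a list, out of 32285 genes counted in single mouse cells. The list holds 24 genes that act in G2 and mitosis (the G2/M members), 18 that act in DNA replication and its start (the S members) and Stmn1, a tubulin-binding protein placed in neither set. All 43 had UMIs (unique molecular identifiers, each counted as 1 RNA molecule) in both libraries. The study profiled cells of mouse bowel and mesenteric adipose tissue, the fat along the bowel, by 10x single-cell sequencing on postoperative day 14. The animals were of the genotype given as B6/C57, aged 8 to 12 weeks, and no transgene or drug is named for either group. Mice of the first group had a colotomy, an incision into the colon, and those of the second had a sham operation. Each operation has 1 library, in which digests of both tissues were marked with hashtag antibodies and pooled. How many mice a library holds is not given in the sources used here.

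Dividing cells switch these genes on in waves. Before and during S phase, E2F factors drive genes for the MCM helicase (Mcm2 to Mcm7), its loaders Cdc6 and Cdt1, the sliding clamp Pcna and the nucleotide-making enzymes Rrm1, Rrm2, Tyms and Tk1. In resting cells the DREAM complex, MuvB with pocket proteins and E2F factors, keeps later genes shut. After S phase MuvB with B-MYB and FOXM1 activates genes for cyclin B and Cdk1, the spindle kinesins, the kinetochore proteins and the ubiquitin ligase parts Cdc20 and Ube2c that end mitosis. In the gut, the crypt base and the cells just above it divide all the time, and germinal centre B cells of lymphoid follicles are among the fastest dividing cells of the body. Most fibroblasts, muscle cells, resting lymphocytes and mature neutrophils do not divide.

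The regulatory elements of these waves can be read in the promoters. These are shown for the G2/M members (Top2a, Mki67, Ube2c) and the S members (Pcna, Mcm7, Rrm1) with the most UMIs in the cells called cycling below. RefSeq windows (GRCm38.p6, 250 bases before to 50 after a start) matched 35 of the 43 members, 20 of them G2/M and 15 S. The windows were searched on both strands for CCAAT (the CCAAT box), for TTTGAA or TTCGAA (the CHR element, bound by MuvB complexes) and for TTTGGCGC, TTTCCCGC, TTTCGCGC or GGCGGGAA (E2F sites). TTTCCCGC and GGCGGGAA can overlap each other on opposite strands. Below are the 250 bases before the start, 5′ to 3′ on the gene's strand, with every match in capitals, so that a CCAAT on the other strand reads ATTGG. Top2a lies at chr11:99024190-99024439 (minus strand), Mki67 at chr7:135716380-135716629 (minus strand), Ube2c at chr2:164769679-164769928 (plus strand), Pcna at chr2:132253181-132253430 (minus strand), Mcm7 at chr5:138171884-138172133 (minus strand) and Rrm1 at chr7:102441445-102441694 (plus strand).
Top2a: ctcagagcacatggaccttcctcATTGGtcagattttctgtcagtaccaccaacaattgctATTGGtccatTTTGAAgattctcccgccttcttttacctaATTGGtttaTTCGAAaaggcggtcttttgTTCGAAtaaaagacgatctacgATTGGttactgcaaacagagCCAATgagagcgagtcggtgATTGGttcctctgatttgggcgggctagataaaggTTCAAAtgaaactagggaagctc
Mki67: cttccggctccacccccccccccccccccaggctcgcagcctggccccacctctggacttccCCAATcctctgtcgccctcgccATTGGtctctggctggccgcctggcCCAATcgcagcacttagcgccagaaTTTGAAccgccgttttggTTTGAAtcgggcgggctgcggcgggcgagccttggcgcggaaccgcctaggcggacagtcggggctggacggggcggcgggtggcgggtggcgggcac
Ube2c: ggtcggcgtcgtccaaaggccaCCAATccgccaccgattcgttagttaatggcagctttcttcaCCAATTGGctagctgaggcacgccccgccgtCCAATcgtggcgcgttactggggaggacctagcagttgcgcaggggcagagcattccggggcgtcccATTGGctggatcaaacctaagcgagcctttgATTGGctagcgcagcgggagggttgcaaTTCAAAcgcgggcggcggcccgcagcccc
Pcna: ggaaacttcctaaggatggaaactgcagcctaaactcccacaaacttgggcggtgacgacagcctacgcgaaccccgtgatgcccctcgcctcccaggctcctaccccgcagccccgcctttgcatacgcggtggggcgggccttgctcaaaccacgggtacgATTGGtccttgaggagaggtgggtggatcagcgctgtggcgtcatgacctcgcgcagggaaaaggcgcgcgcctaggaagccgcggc
Mcm7: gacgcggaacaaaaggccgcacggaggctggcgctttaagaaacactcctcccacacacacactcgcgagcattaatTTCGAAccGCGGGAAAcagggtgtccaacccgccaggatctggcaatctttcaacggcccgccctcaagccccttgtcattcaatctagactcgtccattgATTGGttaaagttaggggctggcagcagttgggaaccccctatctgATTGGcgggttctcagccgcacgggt
Rrm1: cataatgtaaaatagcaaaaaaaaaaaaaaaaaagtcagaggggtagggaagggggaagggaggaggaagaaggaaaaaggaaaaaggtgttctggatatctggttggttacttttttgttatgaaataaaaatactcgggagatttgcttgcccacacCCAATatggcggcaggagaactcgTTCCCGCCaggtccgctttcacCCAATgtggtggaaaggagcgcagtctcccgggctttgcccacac

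Top2a and Ube2c each held 6 CCAAT letters in this stretch, Top2a with 4 CHR matches and Ube2c with 1, and Mki67 held 3 with 2 CHR matches. Pcna held 1 CCAAT and no other match, while Mcm7 and Rrm1 each held 2 CCAAT and 1 E2F match, and Mcm7 also held 1 CHR match. Over the whole windows, 18 of 20 G2/M members and 10 of 15 S members held a CCAAT, against 37.4% of all 32851 windows. A CHR match was found in 16 of 20 G2/M and 3 of 15 S members, against 19.2% of all windows, and those 16 and 3 each held a CCAAT too, a pair found in 7.52% of windows. An E2F match was found in 8 of 15 S members and in 1 of 20 G2/M members (Cdk1), against 3.49%. Birc5, Nusap1, Tyms, Ccne1 and Tk1 held none of these letters. Ccna2, Aurkb, Kif20a, Tpx2, Mcm4, Gins2, Ccne2 and Stmn1 were not matched. A match is a description of letters, not a site shown to be bound.

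After a minimum of 500 gene UMIs and 300 genes per barcode, and a mitochondrial share below 20%, the data held 9246 cells of 15547 barcodes in the colotomy library and 42143 of 44814 in the sham library. The libraries also differ in depth, sex-linked genes and hashtags. Median depth was 778.5 and 1328 UMIs a cell, and 4544 colotomy barcodes but 0 sham barcodes lay under 500 UMIs. Xist stood at 394 CPM (counts per 1000000, here UMIs over the gene UMIs of the same cells) in the colotomy library and 0.724 in the sham library, with 4 Y-linked genes at 156 and 210 CPM. Hashtags did not separate tissues: the median log2 ratio of hashtag 1 to hashtag 2 was 2.62 in the colotomy library (1.77 to 2.95 over classes) and -1.33 in the sham library (-1.52 to -1.13), so no result is given by tissue. The libraries shared 108 barcodes. With 1 library a group no test was possible, and the operation and these differences between the libraries cannot be told apart. Intervals are exact, at 95%, and cover counting error only.

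A cell was called cycling when it held at least 3 member UMIs after every cell had been thinned at random to 500 UMIs. In the colotomy library 1119 of 9246 cells were cycling, 12.1% (11.4% to 12.8%). In the sham library 2491 of 42143 were, 5.91% (5.69% to 6.14%). Without thinning the shares were 20.6% and 16.2%. Most cells held no member UMI at all at this depth, 65.6% and 69.3%, and cells with 10 or more were 26 and 49. Cycling cells had been deeper than the rest before thinning, with medians of 935 against 762 UMIs in the colotomy and 2647 against 1287 in the sham library.

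Free RNA (molecules from burst cells that any droplet can take up) carried members too. In the 4544 colotomy barcodes under 500 UMIs, members stood at 0.487 per 500 UMIs (0.466 to 0.509), against 0.986 in kept cells. The G2/M members were further apart than the S members, at 0.250 against 0.590 and 0.200 against 0.328. The sham library had no such barcodes. Smooth muscle cell or pericyte-like cells, a type not known as dividing, gave a reference share of 8 of 94 cells in the colotomy library, 8.51% (3.75% to 16.1%, median 763.5 UMIs), and of 21 of 991 in the sham library, 2.12% (1.32% to 3.22%, median 1152). This class is a weak reference. In the sham library 44.7% of its other cells, against 91.9% in the colotomy library, held at least 2 of its own markers, and at Leiden resolution 2 it kept 375 sham cells while 621 went to an unnamed cluster led by Myh11 that held 10 of 11 B cell markers. Its sham share was then 2.93%. Of the 8 cycling colotomy cells, 2 held a UMI of germinal centre genes. No share at or below these, or within their intervals, is read as cycling above background. What part free RNA has in any share was not tested.

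The call was checked member by member, by taking each gene out of the list and reading it in the cells called by the other 42. Every member was higher in the called cells, in both libraries. Per cell, G2/M members stood 5.25 to 16.4 times as high in called as in other colotomy cells (median 10.7) and 2.52 to 22.7 times in sham cells (median 15.6). S members stood 2.66 to 13.8 times as high (median 4.18) and 1.77 to 14.8 times (median 5.84), and Stmn1 6.47 and 11.3 times. The lowest G2/M fold was that of Cenpa, the histone H3 variant of centromeres, and the lowest sham fold of all was that of Cdt1, which loads the MCM helicase. Called cells hold more of the dividing classes, so these folds mix cell types. The phases also went together: colotomy cells called by G2/M members alone held 0.742 S UMIs each, against 0.262 in the rest, and sham cells 0.796 against 0.231.

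**Figure D1:**
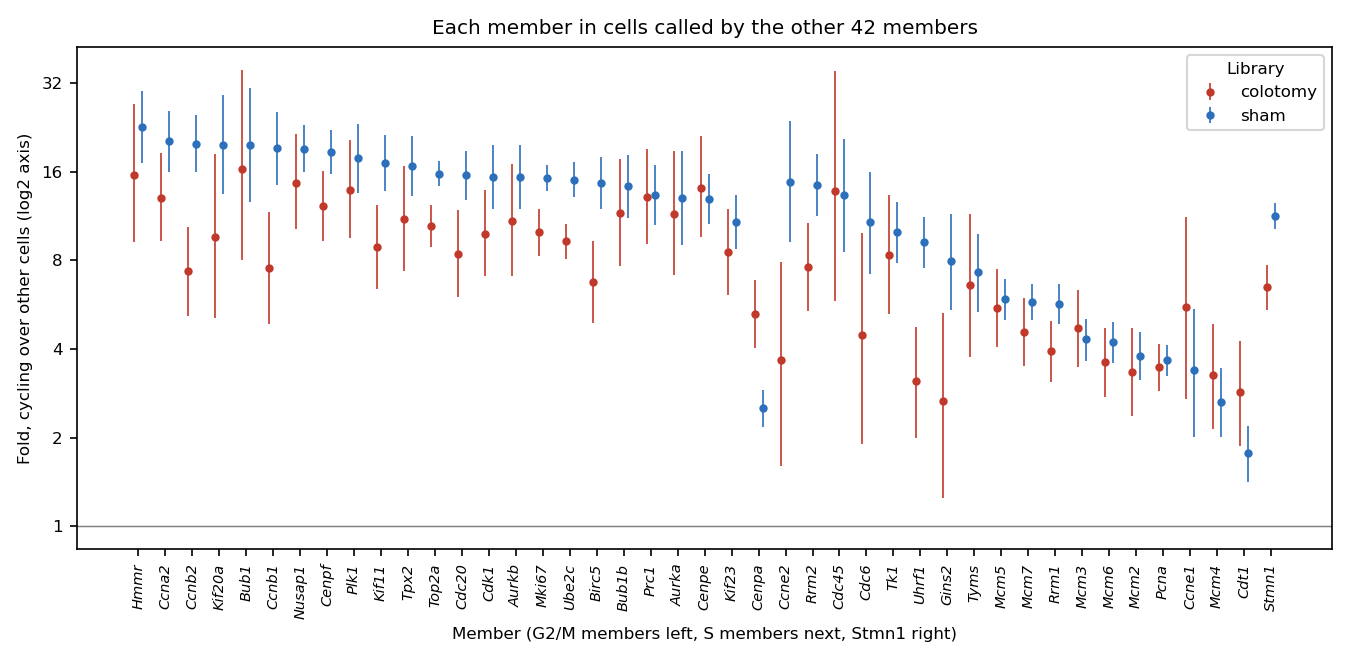
Fold (log2 axis) of each member's UMIs per cell at 500 UMIs, in cells called cycling by the other 42 members over all other cells, with exact 95% intervals for counting error, in the colotomy (red) and sham (blue) library. All points lie above 1, and most G2/M members lie above most S members.

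Few genes carried the call. Ube2c, Top2a, Mki67, Stmn1 and Pcna took 40.1% of member UMIs in cycling colotomy cells, and the same 5 took 35.8% in cycling sham cells. Ube2c, the ubiquitin-conjugating enzyme of the anaphase-promoting complex, had a UMI in 39.8% of cycling colotomy cells (36.9% to 42.7%) and 18.2% of cycling sham cells (16.7% to 19.8%). Top2a, the topoisomerase that untangles sister DNA, was found in 32.2% and 35.7%, and the proliferation marker Mki67 in 28.3% and 32.1%. At the other end, Cdc6 was seen in 1.07% and 2.45% of cycling cells and Ccne1, cyclin E1, in 1.88% and 1.45%.

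Cell types were named from marker sets after clustering both libraries together, with the members and 5 lists of other cell cycle genes kept out of the clustering genes. Of 25 clusters, 24 took 1 of 18 class names and cluster 9 (led by Ear2 and Lyz1, with Ccr2) stayed unnamed. Scrublet called 0 doublets in either library, so its calls were of no use here and none were removed. Its scores were used only for an alternative that left out the highest 5%. Barcodes positive for both hashtags, 750 and 2043, were kept, and 36 of 36 class shares stayed within their interval without them.

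Germinal centre B cell-like cells (GC B in the plots), led by Mybl1 and Mef2b with 9 of 11 markers found, had the highest share in both libraries. Cycling cells were 102 of 139 in the colotomy library, 73.4% (65.2% to 80.5%), and 859 of 1971 in the sham library, 43.6% (41.4% to 45.8%). They made up 34.5% of all cycling cells in the sham library and 9.12% in the colotomy library. Pclaf and Cenps, replication and centromere genes outside the lists kept out, were among the cluster's 10 leading genes, so its cells were not grouped wholly without cell cycle genes. A UMI of any of 4 genes that mark germinal centre B cells (S1pr2, Mef2b, Gcsam, Rgs13) was found at 500 UMIs in 26.5% of cycling and 13.5% of other colotomy cells of the class, and in 26.1% and 16.5% in the sham library.

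Crypt epithelial cell-like cells, with Axin2, Sox9 and Cdca7 among 7 of 13 markers found but led by Dmbt1 and Gsdmc2, held 292 cycling cells of 1041, 28.1% (25.3% to 30.9%), in the colotomy library. In the sham library they held 148 of 787, 18.8% (16.1% to 21.7%). Goblet cell-like cells, the mucus-making cells led by Spink4 and Muc2, held 192 of 949, 20.2% (17.7% to 22.9%), and 125 of 848, 14.7% (12.4% to 17.3%). Colonocyte-like cells of the surface (Aqp8, Krt20) held 3.58% (1.97% to 5.93%) and 3.16% (2.35% to 4.16%), and tuft cell-like cells 8.33% (4.23% to 14.4%) and 4.47% (1.95% to 8.62%). Crypt and goblet cells together were the main source of cycling cells in the colotomy library, at 26.1% and 17.2% of them.

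Plasma cell-like cells, which make antibody, held 102 cycling cells of 385 in the colotomy library, 26.5% (22.2% to 31.2%), and 148 of 840 in the sham library, 17.6% (15.1% to 20.4%). Their cycling cells carried fewer of the plasma cell marker UMIs per 500 than the rest, 32.9 against 82.6 in the colotomy and 24.9 against 66.3 in the sham library. Neutrophil-like cells held 75 of 494, 15.2% (12.1% to 18.7%), in the colotomy library and 7 of 115, 6.09% (2.48% to 12.1%), in the sham library. In the colotomy library the granule genes Ngp, Camp and Ltf were found in more of the cycling than of the other neutrophil-like cells at 500 UMIs: Ngp in 54.7% against 26.0%, Camp in 53.3% against 20.5%, Ltf in 52.0% against 23.2%. Elane, a gene of promyelocytes, was found in 6.67% (2.20% to 14.9%) against 0.477% (0.0579% to 1.71%). The late gene Retnlg went the other way, in 30.7% against 49.2%, and so did the fibroblast gene Col1a1, in 16.0% against 46.3%, and its part in these differences was not tested. All 7 cycling sham neutrophil-like cells held a UMI of the B cell gene Cd79a and 4 held Col1a1 (without thinning), against 60 and 21 of the 108 others. Neutrophil-like cells had been planned as a reference for background beside the smooth muscle or pericyte-like cells, but were not used as one. Their colotomy share is above the 8.51% of that class but within its interval, 3.75% to 16.1%. It is therefore not read as cycling above background.

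Lymphocytes of the colotomy library were few and shallow. B cell-like cells held 38 cycling cells of 110, 34.5% (25.7% to 44.2%, median 610.5 UMIs), against 157 of 11588, 1.35% (1.15% to 1.58%, median 999 UMIs), in the sham library. T cell-like cells held 39 of 97, 40.2% (30.4% to 50.7%, median 690 UMIs), against 324 of 8048, 4.03% (3.61% to 4.48%, median 1214 UMIs). The minimum of 500 UMIs lies near these colotomy medians, and no sham barcode held under 500. The part of this minimum and of the depth gap in the shares was not tested. A UMI of Cd3e was found in 9 of the 39 cycling T cell-like cells and of Trbc2 in 14, against 123 and 195 of the 324 sham ones, which are deeper. Of the 38 cycling B cell-like cells, 16 had a UMI of Ms4a1 and 0 of Cd3e, at a depth where 30 of the 39 cycling T cell-like cells also showed none.

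Class shares of stromal cells lay below the share over all kept cells, 12.1% in the colotomy and 5.91% in the sham library. The macrophage share did so only in the colotomy library. Fibroblast-like cells held 133 of 3644, 3.65% (3.06% to 4.31%), and 149 of 5638, 2.64% (2.24% to 3.10%), while the summed level of the members went the other way, 777 CPM (746 to 810) in the colotomy and 903 (884 to 922) in the sham library, so no order is read. Most colotomy fibroblasts were in cluster 8 (Ptn, Timp1) and most sham ones in clusters 11 (Inmt) and 7 (Pi16). Among these, cluster 11 had the highest share, 11.1% (8.35% to 14.5%) and 3.53% (2.84% to 4.32%), and cluster 8 the lowest, 2.06% and 1.26%. The colotomy share of cluster 11 lay within the interval of the smooth muscle reference, so it is not read as cycling above background. Macrophage-like cells held 25 of 605, 4.13% (2.69% to 6.04%), and 124 of 1823, 6.80% (5.69% to 8.06%). Cluster 10 (Folr2, Cd163) held 6.39% and 7.16%, and cluster 20 (Spp1, Mmp12), where most colotomy macrophages lay, held 8 of 339 and 0 of 90 (exact upper limit 4.02%). Mesothelial cell-like cells stood at 2.65% and 2.68% and vascular endothelial cell-like cells at 4.65% and 4.01%, and their colotomy shares lay below the smooth muscle share. So did the colotomy shares of fibroblast, macrophage, colonocyte, tuft and cluster 9 cells (7.08%, 5.13% to 9.48%), and in the sham library those of B and plasmacytoid dendritic cell-like cells (2.07%, 0.677% to 4.77%). Sham erythroid-like cells stood at 5.32% (4.34% to 6.45%) of 1823 cells.

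Of 17 classes and clusters with at least 50 cells in both libraries, the share was higher in the colotomy library in 15. In 9 the intervals did not overlap, all higher in the colotomy library: germinal centre B, B, T, plasma, crypt epithelial, goblet, conventional dendritic, lymphatic endothelial and smooth muscle or pericyte-like cells. The last of these is the reference class, at 8.51% and 2.12%, so the reference share itself was higher in the colotomy library. The summed member CPM was higher there in the same 9. Conventional dendritic cell-like cells stood at 16.1% (9.32% to 25.2%) of 93 cells and 6.59% (5.35% to 8.02%) of 1396, and lymphatic endothelial cell-like cells at 8.89% (3.92% to 16.8%) of 90 and 2.17% (1.16% to 3.68%) of 599. Both lymphatic shares lay within the interval of the reference in the same library, so neither is read as cycling above background. Of the 15 cycling colotomy dendritic cells 3 held a UMI of germinal centre genes (20%, 4.33% to 48.1%), against 1.28% of the others, and 26.7% against 43.6% held at least 2 of their own markers. Class makeup moves the overall shares: with the sham makeup the colotomy share was 25.6%, which rests on the small lymphocyte classes, and with the colotomy makeup the sham share was 7.70%, so that it stayed below the colotomy share of 12.1%.

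**Figure D2:**
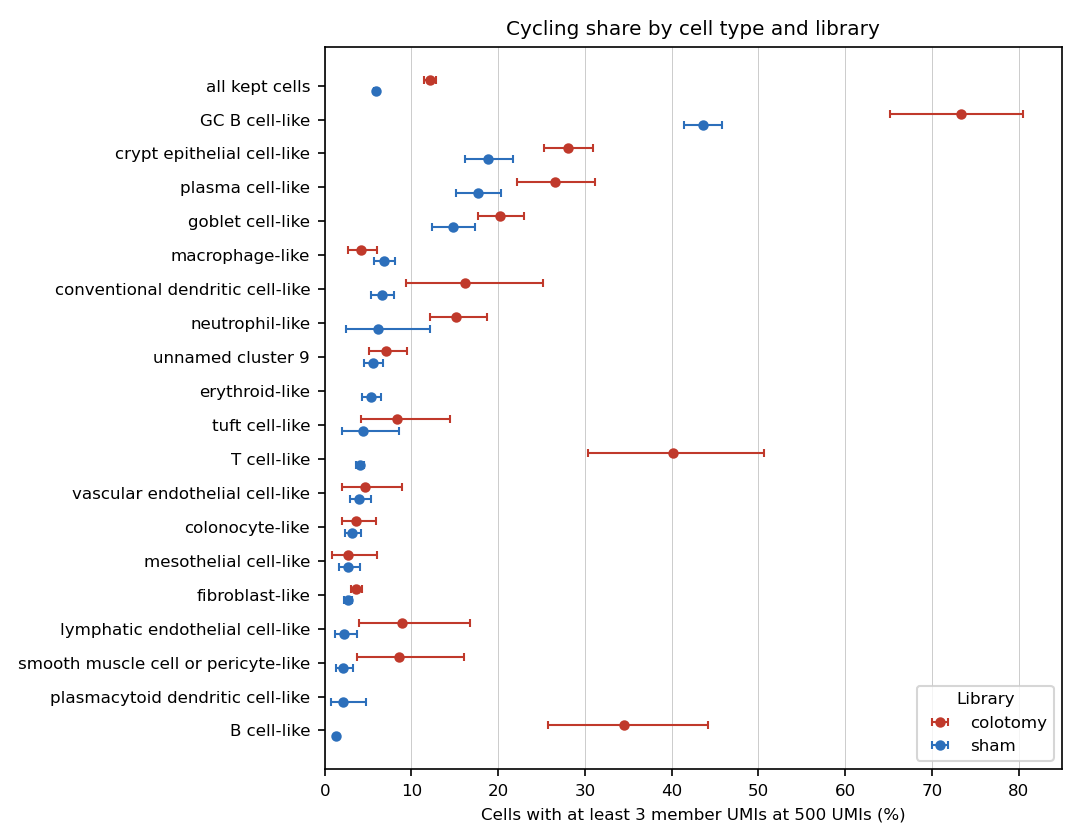
Share of cells with at least 3 member UMIs at 500 UMIs (%), by class, with exact 95% intervals, in the colotomy (red) and sham (blue) library, for classes with at least 50 cells in that library. Germinal centre B cell-like cells lead in both, at 73.4% and 43.6%, and B and T cell-like cells differ most between the libraries.

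By level, 42 of 43 members stood highest in germinal centre B cell-like cells in the sham library, and Ccne1 in plasma cell-like cells. In the colotomy library 35 stood highest there, 7 in T cell-like cells and Ccne1 again in plasma cell-like cells. The following levels are CPM of each class's UMIs, as lowest, median and highest over 17 classes in the colotomy and 19 in the sham library.

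Of the mitotic members, Mki67 ran from 24.9 (mesothelial) over 104 to 763 CPM (germinal centre B) in the colotomy library and from 31.0 (B) over 79.2 to 532 in the sham library. Top2a ran from 20.4 (colonocyte) over 115 to 867 and from 34.8 (B) over 98.5 to 570. Cdk1, the kinase that drives entry into mitosis, ran from 6.22 (mesothelial) over 35.5 to 96.4 and from 6.70 (smooth muscle or pericyte) over 17.04 to 91.6. Its partner Ccnb1, cyclin B1, ran from 5.10 (colonocyte) over 26.3 to 137 and from 4.07 (B) over 11.6 to 83.9. For Ccna2, cyclin A2, no UMI was found in colotomy tuft cell-like cells, which allows up to 32.3 CPM, and the median and highest levels were 38.9 and 321. In the sham library Ccna2 ran from 4.99 (B) over 16.4 to 103. In each case the top class was germinal centre B cell-like in both libraries, while the lowest class differed between them.

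Of the replication members, Pcna ran from 53.6 (colonocyte) over 124 to 594 CPM in the colotomy library and from 67.8 (tuft) over 91.1 to 299 in the sham library, with its highest level in germinal centre B cell-like cells. The clamp thus had a level above 50 CPM in every class described, in both libraries. The lowest, in colotomy colonocyte-like cells, rests on 21 UMIs, and its interval of 33.2 to 81.9 CPM reaches below 50. What part free RNA has in these levels was not tested. Of the helicase subunits, Mcm5 ran from 5.10 (colonocyte) over 44.4 to 305 and from 26.4 (colonocyte) over 45.1 to 205, and Mcm6 from 10.2 (colonocyte) over 52.7 to 329 and from 24.9 (colonocyte) over 49.4 to 185. Rrm2, the regulated subunit of ribonucleotide reductase, ran from 5.10 (colonocyte) over 28.8 to 256 in T cell-like cells of the colotomy library, and from 5.06 (neutrophil) over 16.8 to 88.5 in the sham library. Tyms, which makes thymidylate, had no UMI in the 94 colotomy smooth muscle or pericyte-like cells (up to 47.7 CPM), a median of 16.2 and a highest level of 80.3, and ran from 3.92 (B) over 14.2 to 52.2 in the sham library. Stmn1 ran from 25.5 (colonocyte) over 128 to 570 and from 35.6 (B) over 93.7 to 425.

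The remaining members, outside Ube2c, were read in the germinal centre B cell-like and crypt epithelial cell-like cells. Of the other 18 G2/M members, the kinetochore motor Cenpe stood at 209 and 170 CPM in germinal centre B cell-like cells of the colotomy and sham library, and at 62.7 and 71.9 CPM in crypt cells. Cdc20, which activates the anaphase-promoting complex, stood at 233 and 158 CPM and at 81.7 and 79.6 CPM. The mitotic kinase Plk1 stood at 201 and 91.0 CPM and at 64.5 and 50.7 CPM. Each was higher in the germinal centre class than in crypt cells of the same library, as were Aurka, Aurkb, Birc5, Bub1, Bub1b, Ccnb2, Cenpa, Cenpf, Hmmr, Kif11, Kif20a, Kif23, Nusap1, Prc1 and Tpx2. Of the S members left, the helicase subunit Mcm7 stood at 265 and 221 CPM in germinal centre B cell-like and at 118 and 114 CPM in crypt cells, and Rrm1, the large subunit of ribonucleotide reductase, at 297 and 178 CPM and at 113 and 82.6 CPM. Cdt1 was close in both classes, at 80.3 and 65.5 CPM and at 77.2 and 51.5 CPM. Mcm2, Mcm3, Mcm4, Tk1, Uhrf1, Gins2, Cdc45, Cdc6, Ccne1 and Ccne2 were also higher in the germinal centre class in both libraries. The last 5 stood at under 50 CPM in either class. The colotomy germinal centre class holds 124499 UMIs, so these 5 rest on few UMIs there and no order is read for them.

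**Figure D3:**
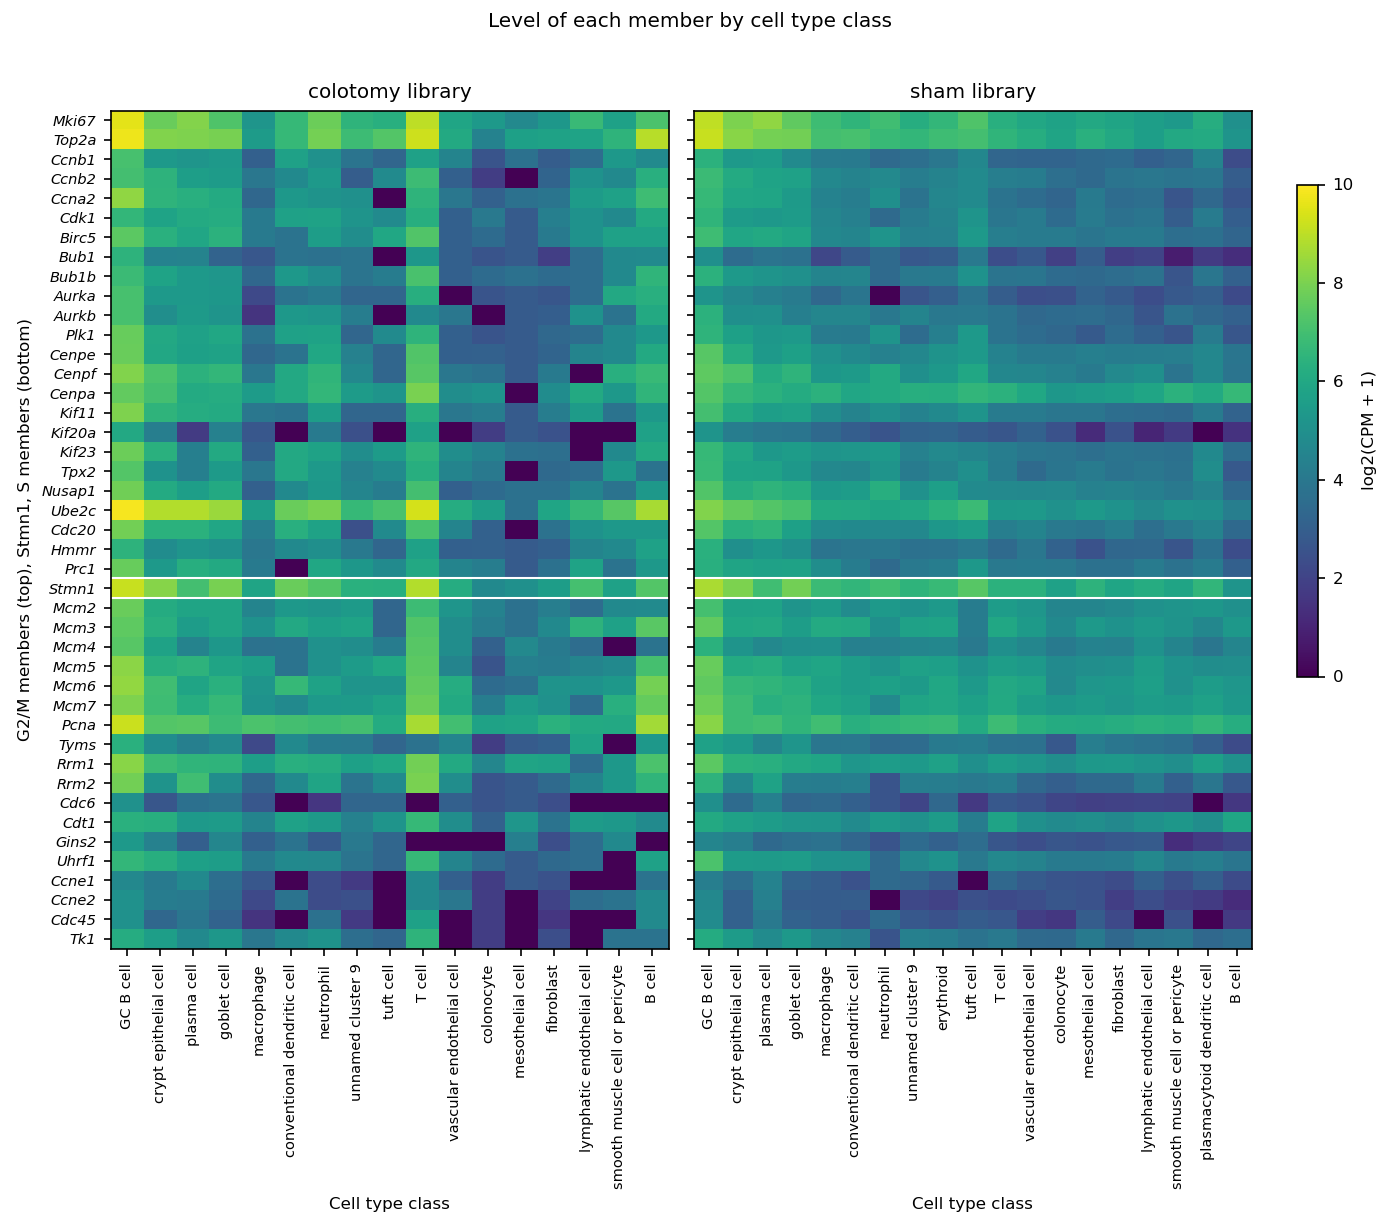
Level of each of the 43 members (rows) in each class (columns) as log2(CPM + 1), in the colotomy (left) and sham (right) library, with G2/M members above, Stmn1 between the white lines and S members below. The germinal centre B column is brightest in both libraries, and the colotomy T and B columns are brighter than the sham ones.

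Levels were then compared between libraries within a class, in classes with at least 100 cells in each. A member counted as higher or lower at a ratio of at least 1.5, over members with at least 10 UMIs, and the share of all genes past the same ratio is given beside each count. In crypt epithelial cell-like cells 7 of 43 members were higher in the colotomy library (17.4% of all genes were) and 2 lower (15.3%). The count of higher members is near the share over all genes, so no result about the members is read from it. As a mean over cells, which weights each cell equally, 14 were higher and 2 lower. Their median log2 ratio was 0.30, against 0.09 over all genes. In goblet cell-like cells 10 were higher (15% of all genes) and 0 lower (14.2%), with a median of 0.27 against 0.07. The 7 crypt members were Ube2c, the checkpoint kinase Bub1 (ratio 1.96, 1.06 to 3.60), Aurka (1.68, 1.11 to 2.53), Ccna2 (1.55, 1.18 to 2.01), cyclin E2 Ccne2 (2.25, 1.12 to 4.55), Uhrf1, which keeps DNA methylation through replication (1.72, 1.27 to 2.32), and Mcm4 (1.52, 1.07 to 2.14). Ube2c, Aurka, Ccna2 and Ccne2 were past 1.5-fold in goblet cell-like cells too, where they were joined by Cdk1, Birc5, Aurkb, Mcm2, Rrm2 and Gins2. The summed S members stood 1.26 times (1.17 to 1.35) and the G2/M members 1.18 times (1.13 to 1.24) as high in colotomy crypt cells, and 1.19 times (1.11 to 1.28) and 1.29 times (1.23 to 1.36) in goblet cells.

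Ube2c had the largest ratio of any member in several classes. In crypt epithelial cell-like cells it was 460 CPM (421 to 502) in the colotomy and 194 (177 to 213) in the sham library, a ratio of 2.37 (2.09 to 2.70). The ratio was 2.67 (2.35 to 3.04) in goblet, 2.84 (2.38 to 3.38) in plasma, 3.42 (2.81 to 4.14) in germinal centre B and 1.75 (1.44 to 2.11) in fibroblast-like cells. In crypt, goblet, plasma and fibroblast-like cells this was the largest ratio of any member with at least 30 UMIs. It was lower in the colotomy library in macrophage-like cells, 45.8 against 66.0 CPM (ratio 0.693, 0.440 to 1.05), and in mesothelial cell-like cells, where 2 and 60 UMIs gave 0.304 (0.0360 to 1.15), and both intervals hold 1. In the 110 colotomy B cell-like cells it was 407 CPM against 18.4, a ratio of 22.1 (14.7 to 32.2). Over all kept cells it was 212 CPM against 69.8. Top2a, by contrast, stood at 275 (245 to 308) and 294 (273 to 317) CPM in crypt cells and Mki67 at 211 (184 to 240) and 257 (237 to 278), both a little lower in the colotomy library. Crypt members with the smallest ratios were Cdc6, 0.533 (0.178 to 1.34), and the spindle assembly factor Tpx2, 0.622 (0.419 to 0.903).

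The shares were also computed without Ube2c. Without it the overall shares were 10.6% and 5.63%. The crypt shares became 24.1% (21.5% to 26.8%) and 17.03% (14.5% to 19.8%), and the goblet shares 16.4% (14.1% to 19.0%) and 13.6% (11.3% to 16.1%), whose intervals overlap. Germinal centre B cell-like cells stood at 71.9% and 42.4% without it and plasma cell-like cells at 23.1% (19.0% to 27.7%) and 15.6% (13.2% to 18.2%).

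In germinal centre B cell-like cells 22 of 43 members were higher in the colotomy library (24.9% of all genes) and 0 lower (32.8%), and the summed level was 9872 CPM against 6021, 1.64 times (1.55 to 1.74). The median log2 ratio of the members was 0.59, against 0.63 over all genes, where counts under 3 enter as 3. The floor lifts the ratio of genes with under 3 colotomy UMIs, as the class holds 124499 UMIs there and 4793145 in the sham library. The median over all genes therefore does not place the members above or below the typical gene of the class. The mitotic kinase Aurka had the largest ratio, 3.87 (2.20 to 6.39, from 17 and 169 UMIs). In plasma cell-like cells 5 were higher (20% of all genes) and 6 lower (25.5%), and as a mean over cells 11 were higher and 4 lower. Rrm2 had the second largest ratio there, 2.29 (1.63 to 3.19), and the mitotic kinesin Kif20a the smallest, 0.161, from 1 and 37 UMIs. In neutrophil-like cells 21 of the 35 members measured were higher (32.4% of all genes) and 1 lower (20.2%), with a median of 0.68 against 0.09. G2/M members stood there at 1647 CPM (1536 to 1764) against 855 (731 to 995).

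Macrophage-like cells went the other way. There 31 of 43 members were lower in the colotomy library (27.6% of all genes) and 1 higher (20.8%), with a median log2 ratio of -0.80 against 0.03. As a mean over cells 18 were lower and 2 higher. The summed G2/M members stood at 390 CPM (339 to 446) against 860 (830 to 891), and the S members at 467 (411 to 528) against 663 (636 to 690). Top2a stood at 43.9 CPM (28.2 to 65.4) against 128 (117 to 141), and Pcna at 145 (115 to 180) against 122 (111 to 134). The 31 lower members held 17 G2/M members, 13 S members and Stmn1. The 1 higher member was Bub1, with an interval of 0.294 to 6.01. Most colotomy macrophages were in cluster 20 and most sham ones in cluster 10, so these values compare different macrophages. In fibroblast-like cells 12 members were lower (19.8% of all genes) and 3 higher (16.9%). Their ratios ran from 0.466 (0.239 to 0.838) for the thymidine kinase Tk1 to 1.75 for Ube2c. The fibroblast counts were 4 lower and 9 higher after the barcodes with the highest Scrublet (doublet) scores were left out, so they give no direction.

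**Figure D4:**
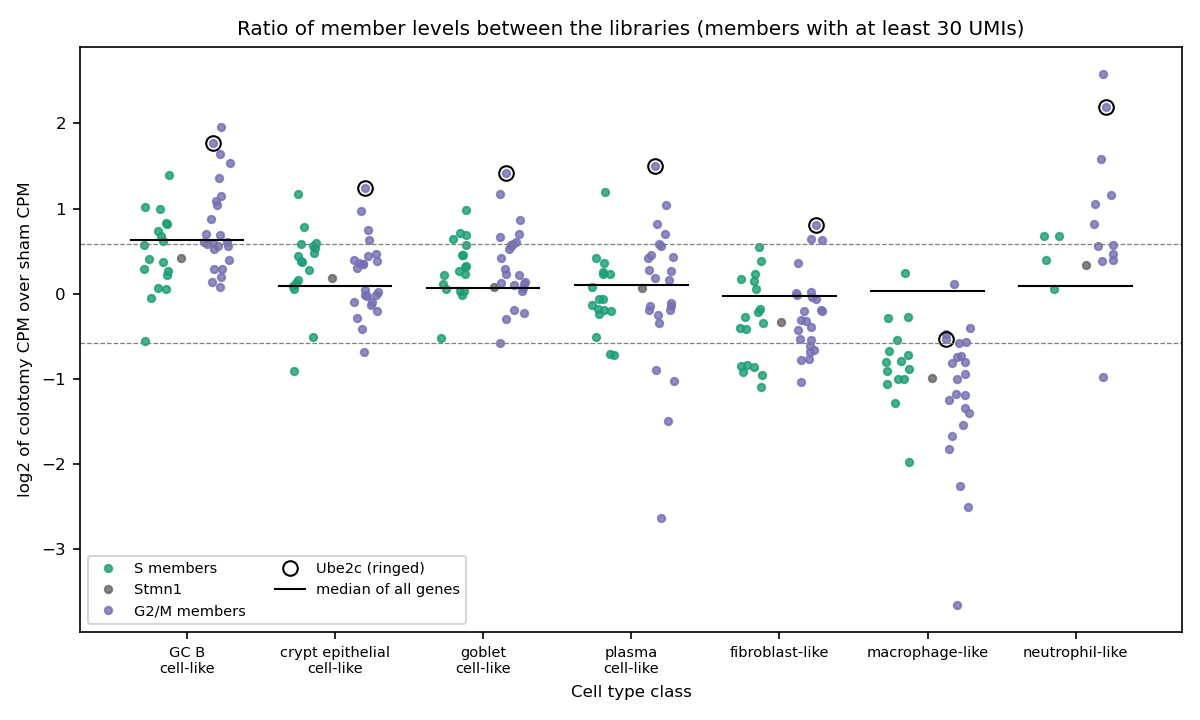
log2 ratio of colotomy to sham CPM for each member with at least 30 UMIs in 7 classes (S members green, Stmn1 grey, G2/M members purple), with Ube2c ringed, the median of all genes as a black bar and 1.5-fold as dashed lines. Ube2c lies above 1.5-fold in 6 of the classes, and most macrophage members lie below the dashed line.

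Cycling cells held more G2/M than S UMIs. S members took 29.7% (28.4% to 31.0%) of the S and G2/M UMIs in cycling colotomy cells and 34.6% (33.7% to 35.5%) in cycling sham cells, and 776 cells held more G2/M than S UMIs against 260 the other way in the colotomy library (1541 and 735 in the sham library). This is a balance of UMIs in cells called by 3 UMIs of either kind, and no phase is read from it. By class, the S share was 28.9% (26.3% to 31.6%) and 25.4% (21.9% to 29.2%) in crypt, 27.3% and 26.0% in goblet, 26.9% and 28.4% in plasma and 32.2% (28.4% to 36.2%) and 35.3% (33.8% to 36.8%) in germinal centre B cell-like cells. In each of these 4 classes the libraries' intervals overlapped. B cell-like cells (37.4% and 42.96%) and T cell-like cells (35.3% and 40.7%) stood higher, macrophage-like cells at 43.3% (33.3% to 53.7%) and 38.2% (33.9% to 42.7%), and colotomy neutrophil-like cells at 22.1% (18.0% to 26.7%).

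**Figure D5:**
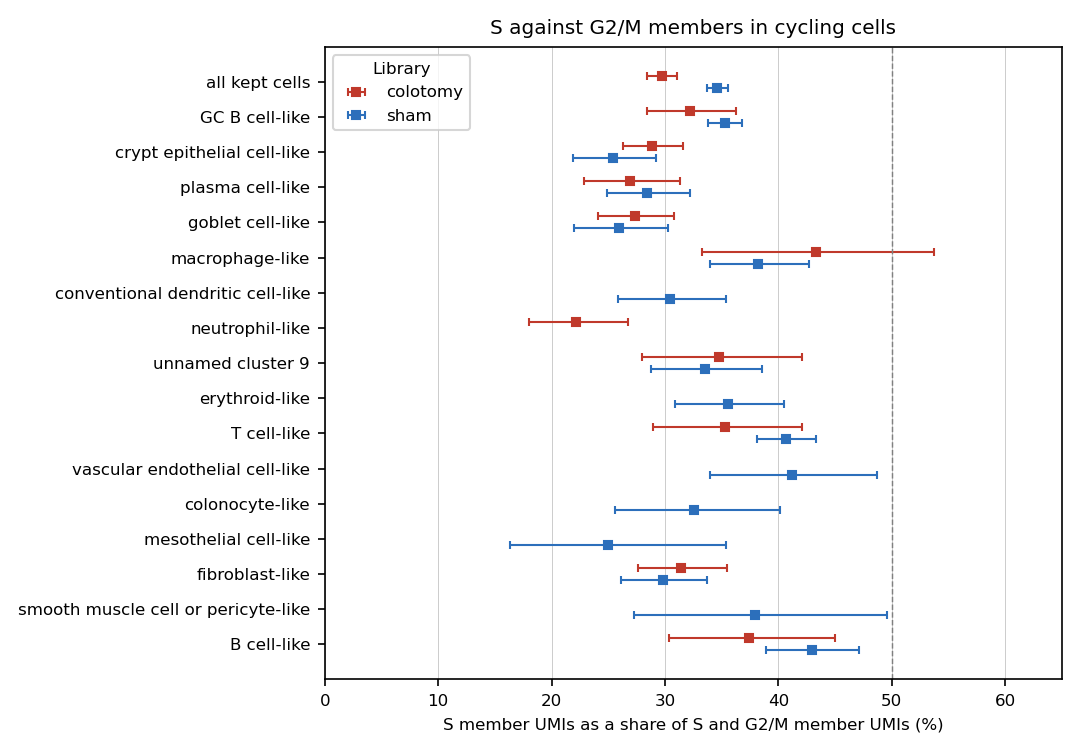
S member UMIs as a share of S and G2/M member UMIs in cycling cells (%), with exact 95% intervals, for classes with at least 20 cycling cells in the colotomy (red) or sham (blue) library. All shares lie left of the dashed line at 50%, and crypt, goblet and plasma cell-like cells lie between 25.4% and 28.9% in both libraries.

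Other cell cycle genes, outside the members, were read within a class by comparing cycling with other cells, and counted where they were at least 1.5-fold apart in the same direction in both libraries. These genes were not used for the call. In crypt epithelial cell-like cells 3.95% of all other genes were higher in both libraries and 4.1% lower. Of the listed mitosis genes 30 of 35 measured were higher, of the chromatin, histone and tubulin genes 14 of 20, of the replication genes 13 of 23, of E2F, MuvB and pocket proteins 5 of 14, and of G1 cyclins, kinases and CDK inhibitors 1 of 15, and none was lower. Hmgb2, a chromatin protein of dividing cells, stood at 2324 CPM in cycling and 1013 in other colotomy crypt cells, 2.29 times (2.07 to 2.54), and at 2496 and 982 in sham ones, 2.54 times (2.37 to 2.73). The condensin subunit Smc4 stood 1.998 and 2.041 times as high, the DNA ligase Lig1 2.15 and 1.93 times, and the tubulin Tubb5 2.13 and 2.52 times. Ccnd1 and Ccnd2, cyclins of G1, stayed under 1.5-fold in crypt cells, at ratios of 1.04 (0.860 to 1.26) and 1.14 (0.929 to 1.40) in the colotomy library and 1.12 (0.926 to 1.35) and 0.973 (0.829 to 1.14) in the sham library.

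Goblet cell-like cells gave like counts. There 31 of 37 mitosis genes, 16 of 20 chromatin genes, 11 of 22 replication genes, 4 of 15 E2F and MuvB genes and 2 of 16 G1 genes were higher, with 4% of all other genes higher and 4.08% lower. In plasma cell-like cells, where 24.7% of all other genes were higher and 2.81% lower, 19 of 19 mitosis, 16 of 17 chromatin, 11 of 13 replication, 8 of 10 E2F and MuvB and 4 of 13 G1 genes were higher. Hmgb2 there stood 5.85 (4.76 to 7.22) and 5.39 (5.02 to 5.78) times as high in cycling cells, and the anti-proliferative gene Btg2 0.588 (0.304 to 1.06) and 0.637 (0.466 to 0.857) times. In germinal centre B cell-like cells only 37 colotomy cells were not cycling, and 8 of 19 mitosis, 8 of 16 chromatin, 3 of 13 replication, 2 of 4 E2F and MuvB and 0 of 7 G1 genes were higher, against 4.54% of all other genes, with Btg1, a second anti-proliferative gene, lower among 1.08%. Btg1 stood at 745 CPM in cycling and 1339 in other sham cells of this class.

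Germinal centre genes were found in more of the cycling than of the other cells in several classes. The same 4 germinal centre genes were found in 10.7% (6.26% to 16.9%) of cycling and 2.30% (1.92% to 2.73%) of other sham fibroblast-like cells at 500 UMIs, in 8.06% and 2.18% of sham macrophage-like cells, in 4.32% and 0.984% of sham T cell-like cells and in 17.5% and 0.985% of sham erythroid-like cells. In the colotomy library they were found in 10.5% (5.88% to 17.03%) of cycling and 3.70% of other fibroblast-like cells, and in 0 of 25 and 2.76% of macrophage-like cells. In crypt and goblet cell-like cells they were found in at most 2.70% of cycling cells in either library. That highest value, in sham crypt cells, stood against 0.939% of other cells, while colotomy crypt cells and goblet cells of both libraries went the other way. Other tuft cell-like cells held these genes in 29.8% (colotomy) and 25.1% (sham), so the genes are not particular to germinal centre cells. The B cell gene Cd79a was found in 26.8% of cycling and 17.8% of other sham fibroblast-like cells. It was found in 24.2% and 23.3% of sham macrophage-like, 21.3% and 26.2% of T cell-like and 28.9% and 33.0% of erythroid-like cells. Fibroblast markers stood at 11.4 UMIs per 500 in cycling and 22.3 in other colotomy fibroblast-like cells, and at 4.85 and 10.5 in sham ones. Leaving out cells with a UMI of the 4 germinal centre genes, the sham share fell from 2.64% to 1.77% in fibroblast-like, from 6.80% to 5.01% in macrophage-like and from 4.03% to 3.59% in T cell-like cells. Median Scrublet scores of cycling and other fibroblast-like cells were 0.104 and 0.0467 in the colotomy and 0.159 and 0.0573 in the sham library. Over all kept cells they were 0.0278 and 0.0406, and 0.0616 and 0.0549. What part doublets and free RNA have in these shares was not tested.

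Across 36 class and library sums, the genes most like the summed members, out of 12491 with at least 200 UMIs, were Hmgb2 (Pearson's r of log2 CPM 0.965), Ranbp1 (0.935), Gmnn (0.926), H2afx (0.924), Smc2 (0.922), Ran (0.909), H2afz (0.905), Incenp (0.904), Rangap1 (0.903) and Ptma (0.897). The points share the 2 libraries and their depths, and the values are a description. Gmnn, geminin, holds back Cdt1, and Ranbp1, Ran and Rangap1 are parts of the Ran system of nuclear transport and spindle assembly.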

How the data were processed

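The deposited matrices hold raw UMI counts per gene and barcode, written by Cell Ranger 6.0.0 per the file headers. The submitters' processing notes also name mm10, STAR 2.5.1b, Cell Ranger, Seurat and Space Ranger. Both libraries were read whole, with 32285 genes and 2 hashtags.

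Cells were kept at 500 UMIs, 300 genes and under 20% mitochondrial UMIs, and each was thinned once at random to 500 UMIs for the cycling call. Clustering used counts per 10000, logged, with 2000 variable genes chosen across libraries, 30 principal components, 15 neighbours and Leiden resolution 1 (scanpy 1.11.5, igraph 0.11.9, scikit-learn 1.9.0, numpy 2.4.6). A cluster was named "X-like" where at least 3 markers of 1 of 29 sets were in 10% of its cells and 2-fold above other cells. That set also needed a larger share of its markers found than any other set. No other set could hold more of the 10 leading genes, and clusters far shallower than their library were not named. In cluster 9 the macrophage and monocyte sets tied, at 4 markers each. CPM are sums over a class. Intervals for shares are Clopper-Pearson, for levels exact Poisson and for ratios exact conditional binomial (scipy 1.17.1), covering counting error only. Ratios use genes with at least 10 UMIs, and a count under 3 in a library enters medians at a floor of 3 counts. Scripts were tested on simulated data.

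The members, gene lists and marker sets were chosen with earlier results of these data known. Genes named with levels were fixed as 11 members of known role, those with the largest and smallest ratio in a class among members with at least 30 UMIs, and those most like the summed members. Other genes named were chosen after their values were seen. Alternatives changed the call threshold, depth, filters, clustering, members and cells left out.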

Additional observations from a re-analysis of the deposited data

How the results depend on the processing

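No paired analysis was possible because each operation has 1 library. For the same reason no library was left out.

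The overall cycling share was higher in the colotomy than in the sham library under every alternative run on both. It was 18.9% and 10.6% with a call at 2 UMIs, 4.91% and 2.30% at 5 UMIs, 32.7% and 14.1% with cells thinned to 1000 UMIs, and 20.6% and 16.2% without thinning. It was 11.4% and 5.40% without Stmn1, 10.6% and 5.63% without Ube2c, 18.7% and 7.97% in cells with at least 1000 UMIs and 500 genes, and 14.4% and 8.34% in cells with Y-linked and no Xist UMIs. The sham share was 6.48% under 10% mitochondrial UMIs, 7.87% in sham cells of at least 1000 UMIs and 5.65% in the lowest of 20 other thinning draws. Weighted by the other library's class makeup, the colotomy share was 25.6% and the sham share 7.70%. The S share was 26.5% and 29.2% at 5 UMIs, 37.4% and 47.1% over all kept cells, and 31.3% in the sham library without thinning.

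The member counts in fibroblast-like cells were 6 higher and 7 lower as a mean over cells, 9 higher and 4 lower without the highest Scrublet scores, and 1 higher at Leiden resolution 2. In crypt epithelial cell-like cells they were 14 higher as a mean over cells and 1 lower at Leiden resolution 2. The cause was not tested. Of 36 class shares, 34 stayed within their interval without Ube2c and 36 without double hashtags. Fewer did so under other settings: 14 of 30 with types called per cell, 13 of 29 in cells with Y-linked and no Xist UMIs, 18 of 34 in cells with at least 1000 UMIs and 500 genes, 2 of 34 thinned to 1000 UMIs, 10 of 36 without thinning, 7 of 36 at 2 UMIs and 3 of 36 at 5 UMIs. Of 34, 29 did so without cells holding UMIs of the 4 germinal centre genes, and 5 were lower. Leiden resolution 0.5 gave no crypt class, and a subtraction of free RNA was not run because the sham library has 0 barcodes under 500 UMIs. At a median of 778.5 UMIs, levels of single members in colotomy classes of about 100 cells rest on few UMIs.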

Other observations

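Clusters within a class differed in their cycling share. In conventional dendritic cell-like cells, cluster 19, led by Xcr1 and Clec9a (genes of the cross-presenting type), held 15 cycling cells of 74, 20.3% (11.8% to 31.2%), in the colotomy library and 73 of 557, 13.1% (10.4% to 16.2%), in the sham library. Cluster 22, led by Ccl22 and Fscn1 (genes of mature dendritic cells), held 0 of 19 and 19 of 839, 2.26% (1.37% to 3.51%). The sham T cell-like clusters lay close together, at 4.43% (3.59% to 5.39%) in cluster 5, with Cd8a and Nkg7, and 3.88% (3.40% to 4.41%) in cluster 6, with Cd28 and Tcf7. In the colotomy library cluster 5 held 3 of 14, 21.4% (4.66% to 50.8%), and cluster 6 held 36 of 83, 43.4% (32.5% to 54.7%). Cluster 23 of the fibroblast-like cells, led by Adamdec1 and Bmp5, held 5 cycling cells of 26, 19.2% (6.55% to 39.4%), in the colotomy library and 12 of 457, 2.63% (1.36% to 4.54%), in the sham library.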
